A study of Mus musculus with 16 samples.

Results

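Transcription factor genes of T cells and innate lymphocytes were described in mouse spleen, namely Tcf7, Lef1, Bcl11b, Gata3, Satb1, Ikzf2, Foxp3, Id2, Maf and Eomes. They were chosen by name, and all 10 were present among the 11713 genes of the deposited count table. The data were CITE-seq, a droplet method that counts polyadenylated RNA as unique molecular identifiers (UMIs) and DNA-tagged antibodies in the same droplet. All samples were spleens of female BALB/cJ mice aged 9 months, for which no treatment or allele is named, passed over a 40 um strainer with 5 minutes of red cell lysis. The labels give 16 samples in 4 groups of 4, which are RNA and antibody libraries of the sources Main1 and Main2, and the tables held 1 set of droplets for each source. The genes were compared between droplets gated on antibodies as CD8 T cells, CD4 T cells divided by CD44, natural killer (NK) cells and, as the contrast, B cells.

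T cell identity rests on factors that act in layers. Tcf7 encodes TCF1 and Lef1 its close relative, the HMG-box partners of beta-catenin that mark naive and early memory T cells. Bcl11b is a zinc finger protein that fixes T-lineage commitment in the thymus, Gata3 directs CD4 and type 2 helper development, and Satb1 is a chromatin organiser of thymocytes. Foxp3 is the defining factor of regulatory T cells, Ikzf2 encodes Helios, an Ikaros family protein of most thymus-derived regulatory T cells, and Maf acts in follicular helper, regulatory and interleukin-10-producing T cells. Id2 encodes an inhibitor of E proteins needed for NK and effector cells, and Eomes is a T-box factor of NK and memory CD8 T cells.

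The 2 libraries held 7097 droplets, 3179 in Main1 and 3918 in Main2, and 14 cell barcodes occurred in both. The CD4 gate took 419 droplets (214 in Main1, 205 in Main2), the CD8 gate 85 (23 and 62), the NK gate 71 (29 and 42) and the B gate 4857 (2144 and 2713). Median depth was 2291 UMIs per droplet in the CD4 gate, 2366 in the CD8 gate, 1523 in the NK gate and 1662 in the B gate. The 10 fixed T cell markers summed to 7555 and 7909 counts per 1000000 UMIs (CPM) in Main1 and Main2 in the CD4 gate, 6906 and 5881 in the CD8 gate, 1608 and 2070 in the NK gate and 353 and 352 in the B gate. In the NK gate Trac and both CD8 genes were at 0, while 11 of 12 NK markers were measured and summed to 30287 and 30174 CPM. B cell markers lay at 284 to 376 CPM in the CD4, CD8 and NK gates, against 9641 and 9616 in the B gate. Plasma cell markers were uneven, with 3885 CPM in Main2 against 201 in Main1 in the CD4 gate, and 5474 against 164 in the CD8 gate. No step here removed doublets, and each fitted value was also obtained without CD4, CD8 and NK droplets carrying over 10 UMIs of B, plasma, myeloid, dendritic or erythroid markers.

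Promoter windows are shown for Tcf7, Lef1 and Bcl11b, the genes that were high in both T gates and low in NK droplets. Sequences are from RefSeq (GRCm38.p6), 250 bases before to 50 after a transcript start, read 5′ to 3′ on the gene's strand. Capitals mark matches on either strand. The string searched for the TCF/LEF family was CTTTGA. That for the ETS family of activators was GGAAGT, while for GATA factors the letters were AGATAA. The RUNX family was searched as TGTGGT, and the E-box bound by E proteins was searched as CAGCTG. None of these strings contains another.
Tcf7, chr11:52282965-52283264, minus strand: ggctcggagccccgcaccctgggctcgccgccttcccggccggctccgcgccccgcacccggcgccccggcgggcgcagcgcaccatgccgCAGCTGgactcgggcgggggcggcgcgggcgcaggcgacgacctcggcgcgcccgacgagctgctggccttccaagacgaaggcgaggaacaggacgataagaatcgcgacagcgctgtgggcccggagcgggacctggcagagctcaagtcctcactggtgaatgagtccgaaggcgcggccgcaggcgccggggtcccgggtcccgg
Tcf7, chr11:52282546-52282845, minus strand: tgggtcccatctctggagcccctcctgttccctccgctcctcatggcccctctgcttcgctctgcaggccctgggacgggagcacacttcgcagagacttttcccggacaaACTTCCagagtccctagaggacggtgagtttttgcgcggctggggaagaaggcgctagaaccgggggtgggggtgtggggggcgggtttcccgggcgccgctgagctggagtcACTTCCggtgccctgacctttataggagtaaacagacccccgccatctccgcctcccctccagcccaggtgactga
Lef1, chr3:131110047-131110346, plus strand: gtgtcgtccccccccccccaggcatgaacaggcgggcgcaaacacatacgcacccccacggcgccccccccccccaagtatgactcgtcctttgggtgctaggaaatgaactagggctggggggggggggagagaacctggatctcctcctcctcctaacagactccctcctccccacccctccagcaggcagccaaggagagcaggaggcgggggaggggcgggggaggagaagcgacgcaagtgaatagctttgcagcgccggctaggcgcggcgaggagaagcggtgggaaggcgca
Lef1, chr3:131156044-131156343, plus strand: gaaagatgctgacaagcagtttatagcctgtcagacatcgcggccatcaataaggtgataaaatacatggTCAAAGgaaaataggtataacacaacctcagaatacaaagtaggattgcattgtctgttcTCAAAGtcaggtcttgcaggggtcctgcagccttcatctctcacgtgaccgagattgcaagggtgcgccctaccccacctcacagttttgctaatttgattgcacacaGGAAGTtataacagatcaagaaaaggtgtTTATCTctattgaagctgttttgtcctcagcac
Bcl11b, chr12:108003365-108003664, minus strand: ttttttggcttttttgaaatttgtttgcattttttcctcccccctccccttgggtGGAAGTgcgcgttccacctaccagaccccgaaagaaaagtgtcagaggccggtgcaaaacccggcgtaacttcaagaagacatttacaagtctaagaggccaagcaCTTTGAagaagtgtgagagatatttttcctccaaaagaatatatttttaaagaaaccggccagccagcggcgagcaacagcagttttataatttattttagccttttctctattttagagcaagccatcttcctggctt
Lef1 has 4 listed windows, of which the first and the last along the gene are printed, and of the others 1 held an E-box string and 1 no match. The first Lef1 window held no match, and the last held 2 TCF/LEF strings, 1 ETS and 1 GATA string. Bcl11b had 1 TCF/LEF and 1 ETS string, and the Tcf7 windows had 1 E-box and 2 ETS strings. Over 32851 windows of all genes, TCF/LEF letters occurred in 16.0%, ETS in 23.8%, GATA in 11.2%, RUNX in 16.8% and E-box letters in 16.3%. Of the 17 windows listed for 8 of the 10 genes, 12 held at least 1 string and 0 held the RUNX string. The share of all windows with at least 1 string was not counted, so the 12 have no background here. Some windows of Lef1 and of Satb1 overlap each other. No window was listed for Ikzf2 or Maf. Such matches describe letters, not binding.

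T droplets carried more RNA of 8 of the 10 genes than B droplets, and the other 2, Foxp3 and Maf, were detected in the CD4 gate but not in the CD8 gate. Levels below are CPM summed over a gate, in Main1 and then Main2. Calls are from edgeR's quasi-likelihood test on the 8 sums of 4 gates and 2 libraries, at a Benjamini-Hochberg adjusted p under 0.05 over all 9745 genes tested, and log2 folds carry their standard error (SE). For the mean of CD4 and CD8 against B, 7.2% of all genes tested were called higher and 11.3% lower (with DESeq2 the split was 632 higher and 504 lower, against 702 and 1103). Of the 10 genes 8 were called higher and 0 lower, with a median log2 fold of 4.12 against -0.19 over all genes. The libraries are not labelled as different animals, though the design text speaks of a pair of spleens, so the p-values do not reach beyond these libraries. They rest on a variance trend shared by all genes, not on how each gene varied between the libraries. A gene could thus be called although its libraries differed in direction.

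Tcf7 (ENSMUSG00000000782, chr11:52252371-52283014, minus strand) was at 220 and 216 CPM in CD4 droplets and 259 and 85.6 in CD8 droplets, against 2.24 and 1.09 in B droplets. The gates did not overlap in either library. Its log2 fold, T minus B, was 6.54 ± 0.34 (edgeR adjusted p = 2.9e-81). A Tcf7 UMI was present in 176 of 419 CD4 droplets (42.0%, 95% exact binomial interval 37.2 to 46.9) and 25 of 85 CD8 droplets (29.4%), against 15 of 4857 B droplets (0.309%). After every droplet was thinned to 1000 UMIs these shares were 16.2%, 15.3% and 0.226%, with both T gates still above the B gate. In sums such as these, fewer positive cells and less RNA per cell cannot be told apart. All intervals cover counting error only.

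Lef1 (ENSMUSG00000027985, chr3:131110471-131224356, plus strand) was at 336 and 365 CPM in CD4 and 382 and 235 in CD8 droplets, against 6.73 and 7.47 in B droplets. The log2 fold was 5.30 ± 0.21 (edgeR adjusted p = 8.02e-139). Bcl11b (ENSMUSG00000048251, chr12:107910403-108003602, minus strand) was at 305 and 225 CPM in CD4 and 328 and 144 in CD8 droplets, against 2.02 and 3.1 in B droplets. Its log2 fold was 6.28 ± 0.27 (edgeR adjusted p = 3.99e-116). For all of Tcf7, Lef1 and Bcl11b the CD8 level of Main1, from 23 droplets, was above that of Main2, while in CD4 droplets the libraries differed by less. Fixed memory and effector T cell markers summed to 6087 CPM in CD8 droplets of Main1 and 14738 in Main2. Naive T cell markers summed to 1761 and 1258 CPM there, and the part of this difference in the CD8 levels was not tested. Both T gates lay far above the B gate for these genes in each library.

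Gata3 (ENSMUSG00000015619, chr2:9857078-9890034, minus strand) was at 97.7 and 87.0 CPM in CD4 and 27.3 and 64.2 in CD8 droplets, against 0.898 and 0.911 in B droplets, a log2 fold of 6.01 ± 0.53 (edgeR adjusted p = 8.9e-28). Satb1 (ENSMUSG00000023927, chr17:51736187-51833290, minus strand) stood apart because B droplets carried it too. It was at 198 and 209 CPM in CD4 and 246 and 161 in CD8 droplets, against 109 and 89.6 in B droplets. Its log2 fold was 0.84 ± 0.16 (edgeR adjusted p = 1.41e-06), and a UMI was present in 824 of 4857 B droplets (17.0%). Its T and B levels lay apart in both libraries, by less than for the other called genes. Id2 (3.90 ± 0.18, edgeR adjusted p = 5.34e-103), Ikzf2 (4.25 ± 1.014, edgeR adjusted p = 0.000289) and Eomes (3.99 ± 0.59, edgeR adjusted p = 4.51e-10), whose levels are given with the gates in which they were high, were also called higher in T droplets.

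**Figure D1:**
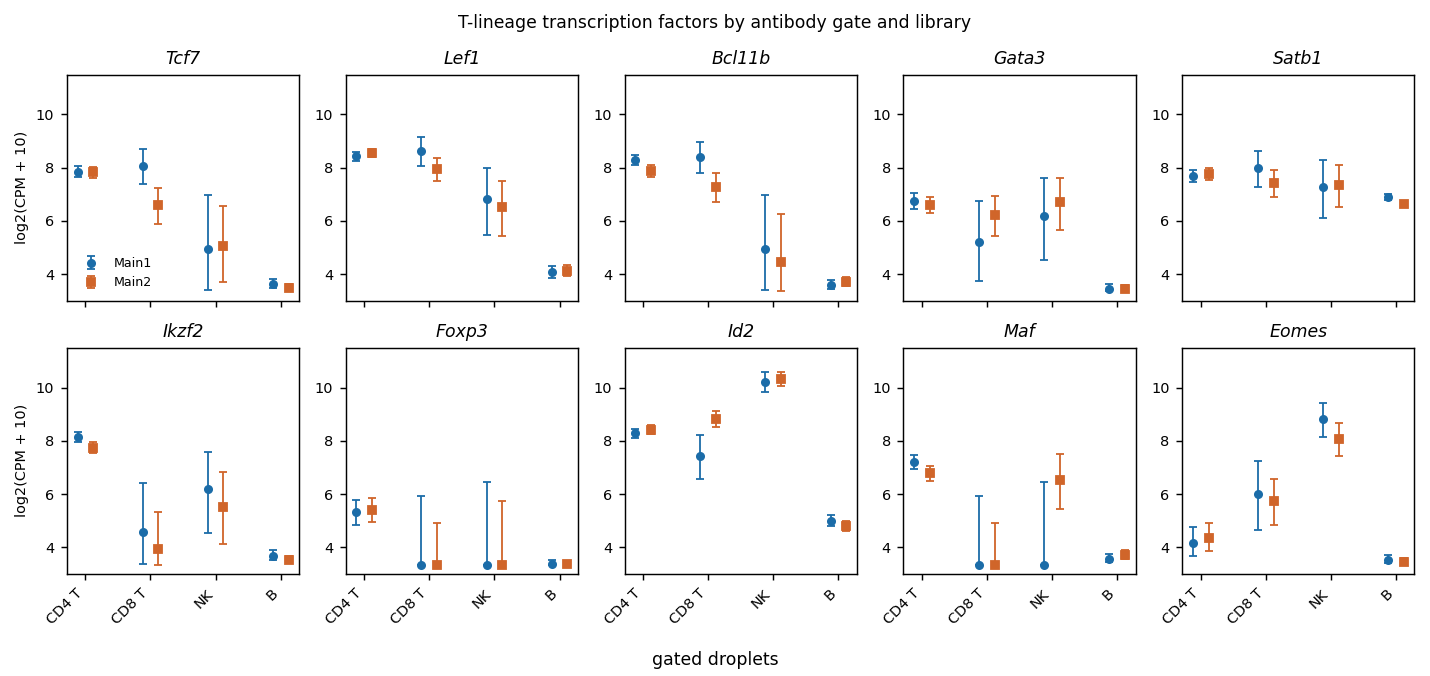
Level of each gene, as log2(CPM + 10), in CD4 T, CD8 T, NK and B droplets of Main1 (circles) and Main2 (squares), with 95% exact Poisson intervals that cover counting error only. Id2 and Eomes are highest in NK droplets in both libraries, Ikzf2 and Maf are high in CD4 and near the floor in CD8 droplets, and Satb1 differs least between T and B droplets of the genes called.

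The CD4 gate held 3 genes at a level that CD8 droplets did not show, and only 2 of these passed the test. In CD8 against CD4 droplets 0.39% of all genes tested were called higher and 0.441% lower, and of the 10 genes 0 were called higher and 2 lower. Ikzf2 (ENSMUSG00000025997, chr1:69531214-69687245, minus strand) was at 13.6 and 5.35 CPM in CD8 droplets, 1 UMI in each library, against 276 and 205 CPM in CD4 droplets. Its log2 fold, CD8 minus CD4, was -4.85 ± 0.55 (edgeR adjusted p = 1.06e-15). A UMI was found in 2 of 85 CD8 droplets (2.35%) against 120 of 419 CD4 droplets (28.6%). In B droplets, as background, 0.412% had one.

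Maf (ENSMUSG00000055435, chr8:115682942-115707794, minus strand) had 0 UMIs in the CD8 gate of either library, against 136 and 99.8 CPM in CD4 droplets. Counted against a floor of 3 UMIs over the CD8 gate, it was at least 10.2-fold higher in CD4 droplets, and the difference was called (edgeR adjusted p = 2.92e-08). With 0 of 85 CD8 droplets holding a Maf UMI, a share of up to 4.25% remains possible, a limit on droplets with a UMI and not on cells that express Maf. Foxp3 (ENSMUSG00000039521, chrX:7573644-7595245, plus strand) likewise had 0 UMIs in the CD8 gate, against 29.6 and 32.0 CPM in CD4 droplets, at least 2.67-fold higher. That difference did not pass (edgeR adjusted p = 0.181). Of 76 droplets with a Foxp3 UMI in the whole series, 40 lay in the CD4 gate, 0 in the CD8 gate, 0 in the NK gate and 4 in the B gate. Another 15 were T cell droplets that entered neither the CD4 nor the CD8 gate.

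As a mean of both T gates, with 0 UMIs in CD8 droplets, Foxp3 had no usable error (SE 35.0 on the log2 scale), and Maf, with an SE of 1.59, was not called (edgeR adjusted p = 0.947). CD4 against B droplets was added after the data had been seen. In that comparison 11.2% of genes tested were called higher and 13.1% lower, and all 10 genes were called higher. Foxp3 was at 0.449 and 0.364 CPM in B droplets, a log2 fold, CD4 minus B, of 5.85 ± 0.63 (edgeR adjusted p = 2.96e-19). Maf was at 1.8 and 2.92 CPM in B droplets, a log2 fold of 5.41 ± 0.28 (edgeR adjusted p = 2.03e-82), and Ikzf2 had one of 6.68 ± 0.22 (edgeR adjusted p = 1.92e-199). Eomes was the least firm of them, with 14 UMIs in CD4 droplets, and its call ended with mixture-based gates (edgeR adjusted p = 0.259) and in droplets of 1000 to 4000 UMIs (0.501).

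The other genes did not pass between CD8 and CD4 droplets. Eomes (ENSMUSG00000032446, chr9:118478212-118486132, plus strand) was at 54.6 and 42.8 CPM in CD8 droplets, 4 and 8 UMIs, against 7.72 and 10.2 CPM in CD4 droplets. It was higher in CD8 droplets in both libraries, with a log2 fold of 2.43 ± 0.74 (edgeR adjusted p = 0.093), and DESeq2 called it (adjusted p = 0.0252). Tcf7 gave -0.64 ± 0.27 (edgeR adjusted p = 0.533), with opposite signs in the libraries, and Gata3 gave -0.79 ± 0.44. The log2 folds of Bcl11b, Lef1, Satb1 and Id2 lay between -0.33 and 0.11, also with opposite signs. Main1 and Main2 gave 0.10 and -0.61 for Bcl11b, 0.18 and -0.61 for Lef1, 0.30 and -0.36 for Satb1, and -0.84 and 0.41 for Id2. In simulated sums of this size 36 of 50 genes raised 4-fold in CD8 droplets and 12 of 50 lowered 4-fold were called. Of genes changed 2-fold, 2 of 50 raised and 1 of 50 lowered were called (9779 genes in the fit, 5 false calls among the 9579 left alone). The changed genes all had more UMIs over the sums than Eomes, Foxp3 or Gata3, and the simulated spread was set above that fitted to the real sums. These shares therefore do not apply to genes as sparse as Eomes, Foxp3 and Gata3.

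NK droplets carried the most Id2 and Eomes and little Tcf7 and Bcl11b. In NK against B droplets 3.18% of genes tested were called higher and 5.93% lower (310 and 578, with DESeq2 393 and 302), and of the 10 genes 6 were called higher and 0 lower. Against the mean of the T gates 1.57% were called higher and 2.91% lower, and of the 10 genes 2 were called higher and 3 lower. With DESeq2's size factors in place of TMM, the median of all genes moved by 0.17 on the log2 scale in NK against B droplets and by 0.10 in NK against T droplets. No called gene of the 10 changed direction or lost its call with those size factors.

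Id2 (ENSMUSG00000020644, chr12:25093799-25097140, minus strand) was at 1191 and 1277 CPM in NK droplets, against 301 and 331 in CD4, 164 and 444 in CD8 and 22.0 and 17.9 in B droplets. NK levels lay above every other of these gates in both libraries. The log2 fold was 1.56 ± 0.18 for NK minus T (edgeR adjusted p = 1.51e-16) and 5.46 ± 0.21 for NK minus B (edgeR adjusted p = 2.64e-142). An Id2 UMI was present in 58 of 71 NK droplets (81.7%), against 42.7% of CD4, 44.7% of CD8 and 3.11% of B droplets.

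Eomes was at 439 and 260 CPM in NK droplets, against 7.72 and 10.2 in CD4, 54.6 and 42.8 in CD8 and 1.35 and 0.911 in B droplets. The order NK, CD8, CD4, B held in both libraries. Its log2 fold was 3.66 ± 0.45 for NK minus T (edgeR adjusted p = 7.75e-14) and 7.65 ± 0.55 for NK minus B (edgeR adjusted p = 5.81e-42). A UMI was found in 30 of 71 NK droplets (42.3%, interval 30.6 to 54.6) against 10 of 4857 B droplets (0.206%).

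Tcf7, Lef1 and Bcl11b formed the opposite group. Bcl11b was at 20.9 and 11.8 CPM in NK droplets, 1 UMI in each library, and its log2 fold, NK minus T, was -4.24 ± 0.60 (edgeR adjusted p = 1.27e-10). Tcf7 was at 20.9 and 23.7 CPM, 3 UMIs in all, with a log2 fold of -3.25 ± 0.59 (edgeR adjusted p = 2.39e-06). Lef1 was at 104 and 82.8 CPM, 12 UMIs in 11 droplets, with a log2 fold of -2.13 ± 0.35 (edgeR adjusted p = 7.75e-08). So the T-lineage genes of this group were lower in NK than in T droplets, but Lef1 was still 3.17 ± 0.57 on the log2 scale above B droplets (edgeR adjusted p = 1.23e-06). T cell markers were present in the NK gate at 1608 and 2070 CPM, and their part in the Lef1 level was not tested. The Lef1 call against B droplets ended when the NK gate required 10 counts of the NKp46 antibody (log2 fold 2.48, edgeR adjusted p = 0.0557). Tcf7 was not called against B droplets (3.28 ± 1.20, edgeR adjusted p = 0.0653), and with DESeq2's size factors it was (edgeR adjusted p = 0.0474).

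Gata3 was shared by NK and T droplets. It was at 62.7 and 94.6 CPM in NK droplets, 11 UMIs in 11 droplets, a log2 fold of 5.91 ± 0.85 over B droplets (edgeR adjusted p = 1.22e-10), and differed from the T gates by -0.11 ± 0.54. Ikzf2 was at 62.7 and 35.5 CPM in NK droplets, from 3 droplets, a log2 fold of 3.99 ± 0.91 over B droplets (edgeR adjusted p = 0.000239). Maf was uneven. It had 0 UMIs in NK droplets of Main1 and 82.8 CPM, 7 UMIs, in Main2, and its call against B droplets (3.93 ± 0.89, edgeR adjusted p = 2e-04) rested on Main2, since Main1 alone gave a log2 ratio of -0.24. Satb1, at 146 and 154 CPM in NK droplets, did not pass against B (0.14 ± 0.34) or T droplets (-0.70 ± 0.33), and Foxp3 was at 0 UMIs in NK droplets.

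**Figure D2:**
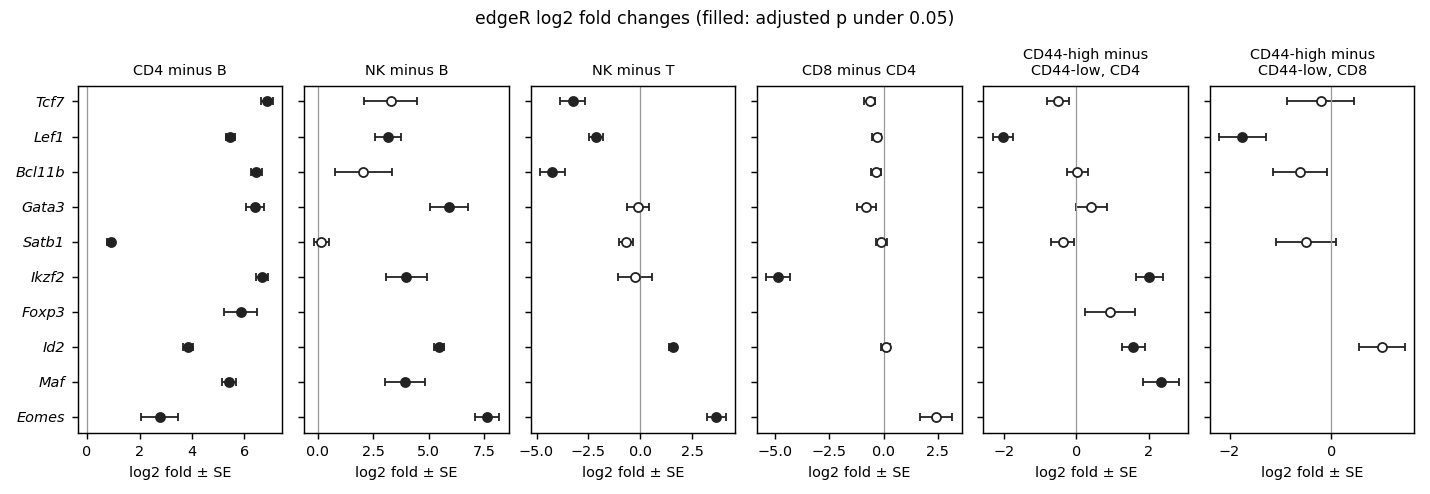
Fitted log2 folds with 1 SE for each gene in 6 comparisons, named above each panel as the group on top minus the group below, where filled points passed an edgeR adjusted p under 0.05. Eomes lies above 0 by 7.65 in NK minus B and by 3.66 in NK minus T, Ikzf2 lies at -4.85 in CD8 minus CD4, and Lef1 is below 0 in both CD44 comparisons. Folds with an SE over 1.5, all with a group at or near 0 UMIs, are not drawn, nor is Eomes in the CD44 panels, where it was not tested.

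CD44 is an adhesion receptor that antigen-experienced T cells carry at a high level. The CD4 and CD8 gates were split into tertiles of the CD44 antibody within each library, and the upper was compared with the lower. In CD4 droplets 1.43% of 4265 genes tested were called higher in CD44-high and 0.281% lower, and of the 9 genes that reached the count filter 3 were called higher and 1 lower. Eomes, with 5 UMIs in these CD4 droplets and 6 in the CD8 ones, was not tested. CD44-high droplets were deeper, with a median of 2778 UMIs against 1968 in CD44-low droplets. The fixed memory and effector markers summed to 4589 and 5464 CPM in CD44-high against 1167 and 1177 in CD44-low droplets, and the naive markers to 1013 and 1023 against 2188 and 2276. NK markers also differed, at 526 and 844 CPM against 213 and 165, as did myeloid markers, at 445 and 735 against 200.1 and 304. Plasma cell markers were at 169 and 8351 CPM against 187 and 278, and values without the droplets that carried B cell, plasma cell, myeloid, dendritic or erythroid markers are given with each called gene. NK markers were not among those used to leave droplets out, and their part in the Id2 level of CD4 droplets was not tested.

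Lef1 fell with CD44. It was at 794 and 734 CPM in CD44-low, 303 and 317 in CD44-mid and 146 and 241 in CD44-high CD4 droplets, a step down at each tertile in each library. The log2 fold, high minus low, was -2.03 ± 0.28 (edgeR adjusted p = 1.57e-10). A Lef1 UMI was found in 58 of 141 CD44-high (41.1%) against 96 of 139 CD44-low droplets (69.1%), though the CD44-low droplets were the shallower ones. After thinning the shares were 13.5% against 52.5%. Its call held in every alternative with a test. Tcf7, its close relative, was at 233 and 284 CPM in CD44-low, 216 and 238 in CD44-mid and 217 and 168 in CD44-high droplets. That log2 fold of -0.50 ± 0.29 did not pass (edgeR adjusted p = 0.649).

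Id2, Ikzf2 and Maf rose in CD44-high CD4 droplets. Id2 was at 86.7 and 212 CPM in CD44-low, 269 and 265 in CD44-mid and 438 and 441 in CD44-high droplets, a log2 fold of 1.57 ± 0.31 (edgeR adjusted p = 1e-04), which DESeq2 did not call (adjusted p = 0.0996). Ikzf2 was at 80.1 and 46.3 CPM in CD44-low, 297 and 303 in CD44-mid and 351 and 191 in CD44-high droplets. The CD44-mid and CD44-high levels of Ikzf2 overlapped, so its gap was between CD44-low droplets and the rest. Its log2 fold, high minus low, was 2.007 ± 0.37 (edgeR adjusted p = 1.52e-05). Splitting the gate at the median gave 0.63 (edgeR adjusted p = 0.297), tertiles of raw CD44 counts gave 0.99 (edgeR adjusted p = 0.141), and DESeq2 gave 2.08 (adjusted p = 0.25).

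Maf followed the same tertiles. It was at 26.7 and 26.5 CPM in CD44-low, 4 UMIs in each library, 128 and 145 in CD44-mid and 198 and 94.1 in CD44-high droplets, a log2 fold of 2.33 ± 0.49 (edgeR adjusted p = 0.000287). Split at the median it was 0.93 (edgeR adjusted p = 0.118). With droplets that held over 10 UMIs of other cell types left out, the log2 folds were 1.64 for Id2, 2.111 for Ikzf2, 2.498 for Maf and -2.06 for Lef1, all called. In droplets of 1000 to 4000 UMIs they were 2.22, 2.32, 2.94 and -2.54. Bcl11b (0.03 ± 0.29), Gata3 (0.42 ± 0.42), Satb1 (-0.38 ± 0.32) and Foxp3 (0.92 ± 0.68) did not pass.

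In CD8 droplets Lef1 was the only one of the 10 genes called, and that call was not stable. There 0.703% of genes tested were called higher in CD44-high and 0.117% lower, and of the 9 genes 0 were called higher and 1 lower. Each tertile held 8 droplets in Main1 and 21 in Main2 (7 and 20 in the middle one). Median depth was 3593 UMIs in CD44-high and 2151 in CD44-low CD8 droplets. Lef1 was at 633 and 535 CPM in CD44-low, 259 and 172 in CD44-mid and 280 and 105 in CD44-high droplets, a log2 fold of -1.75 ± 0.46 (edgeR adjusted p = 0.0231). It kept its sign in every alternative and lost its call in 8 of them, without the replicate block among them (edgeR adjusted p = 0.129), and without droplets of other markers (-1.40, edgeR adjusted p = 0.172), with values from -1.09 for raw CD44 tertiles to -2.36 in droplets of 1000 to 4000 UMIs.

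Id2 was at 136 and 288 CPM in CD44-low, 64.8 and 345 in CD44-mid and 224 and 592 in CD44-high CD8 droplets, and its log2 fold of 0.998 ± 0.46 did not pass (edgeR adjusted p = 0.538). NK markers moved with the tertiles, at 1512 and 5413 CPM in CD44-high against 1084 and 1235 in CD44-low droplets, although Ncr1, Klrb1c and Klre1 were at 0. Plasma cell markers were at 112 and 11697 CPM in CD44-high against 226 and 144 in CD44-low CD8 droplets, with 98.1% of the CD44-high UMIs in 1 droplet, and myeloid markers at 280.0 and 1243 against 361 and 185. The part of these markers in the Id2 level was not tested. Gata3 had 11 UMIs in CD44-high CD8 droplets, 56.0 and 105 CPM, and 0 UMIs in CD44-low ones, at least 2.13-fold higher against the floor of 3 UMIs. This Gata3 difference did not pass (edgeR adjusted p = 0.226). Whether the CD44 difference was unlike in CD8 and CD4 droplets was tested as an interaction, in which 0.117% of genes were called higher and 0.0469% lower. Of the 9 genes 0 were called by edgeR, 1 had an unadjusted p under 0.05 (Gata3, named for that after its value was seen), and DESeq2 called 0 of all genes, with 50 at an unadjusted p under 0.05.

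**Figure D3:**
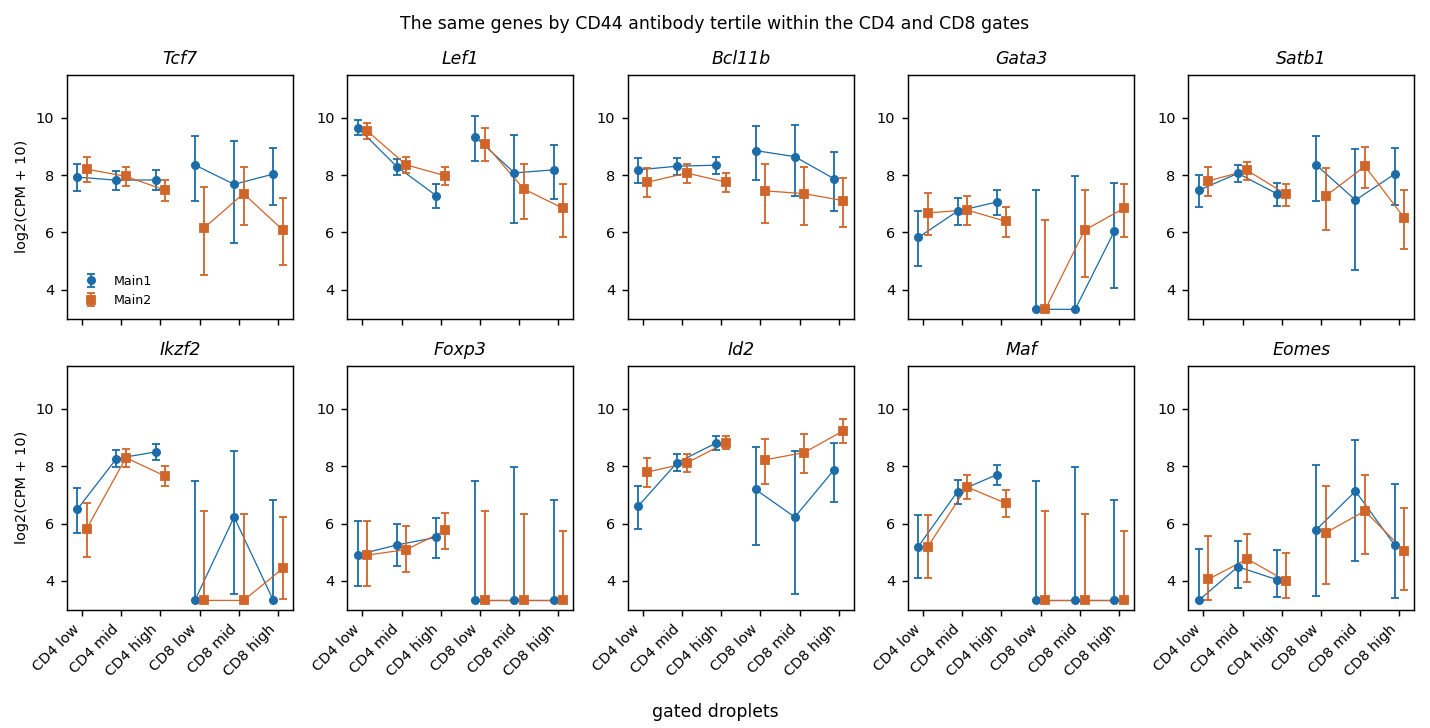
Level of each gene, as log2(CPM + 10), by tertile of the CD44 antibody from low to high in CD4 (left) and CD8 (right) droplets of Main1 (circles) and Main2 (squares), with 95% exact Poisson intervals. Lef1 is lower in CD44-high than in CD44-low droplets in both gates and both libraries, Ikzf2 and Maf step up between CD44-low and CD44-mid CD4 droplets, and CD8 intervals are wide.

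No antibody of the panel marks regulatory T cells, so regulatory-like droplets were those of the CD4 gate with a UMI of at least 2 of Il2ra, Ctla4, Tnfrsf4, Tnfrsf18 and Izumo1r, none of them among the 10 genes. They numbered 143 of 419, and the other 276 CD4 droplets served for comparison. RNA of the same droplets chose them and they were deeper (median 3315 UMIs against 2125), so the values are a description with no test. The genes used were not all confined to such droplets. Pooled over the libraries, Tnfrsf18 was at 256 CPM in regulatory-like, 93.7 in other CD4 and 227 in NK droplets. Il2ra, Ctla4, Tnfrsf4 and Izumo1r had 0 UMIs in NK droplets. Naive T cell markers summed to 1173 and 1144 CPM in regulatory-like droplets, against 1686 and 1544 in the others. The part of this naive difference in the levels below was not tested. Ikzf2 was at 421 and 342 CPM in regulatory-like droplets, against 122 and 82.3 in the others, a ratio of 3.78 (95% interval 2.95 to 4.91). Foxp3 was at 52.3 and 48.9 CPM against 5.32 and 16.9, a ratio of 4.44 (2.12 to 10.4), and Maf at 184 and 144 against 85.1 and 60.5, a ratio of 2.29 (1.66 to 3.18). These 3 genes were higher in regulatory-like droplets in both libraries, though Foxp3 rested on 2 and 7 UMIs in the other droplets. The share of all genes with the same order in both libraries was not counted.

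Lef1 was lower, at 249 and 250 CPM in regulatory-like droplets against 428 and 467 in the others, a ratio of 0.556 (0.464 to 0.665). Tcf7 was lower by less, at 202 and 179 CPM against 239 and 249, a ratio of 0.781 (0.626 to 0.973). Bcl11b had a ratio of 1.23 (1.007 to 1.498), Gata3 1.21, Satb1 1.10, Id2 0.934 and Eomes, with 14 UMIs in all, 1.85. The intervals of Gata3, Satb1, Id2 and Eomes held 1. All these intervals pool the libraries and cover counting error only, so whether one holds 1 is not a test. A Foxp3 UMI was present in 33 of 143 regulatory-like droplets (23.1%) and 7 of 276 others (2.54%), against 5.59% and 1.09% after thinning. An Ikzf2 UMI was present in 84 of the 143 (58.7%) and 36 of the 276 (13.0%), and after thinning in 30.1% and 8.7%. Of the 40 CD4 droplets with a Foxp3 UMI, 31 also held an Ikzf2 UMI (77.5%), against 23.5% of the 379 without, where the median depth was 5247 against 2254 UMIs. After thinning it was 7 of 11 (63.6%) against 14.7%.

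**Figure D4:**
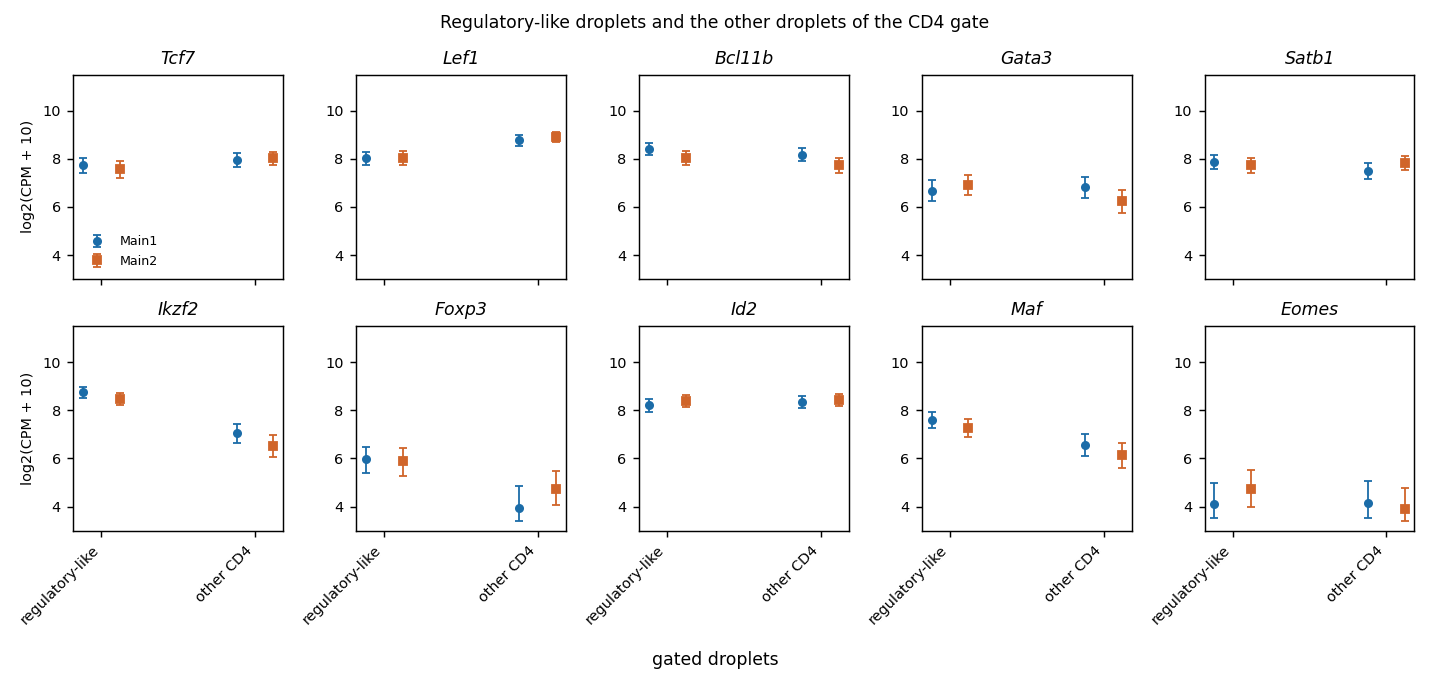
Level of each gene, as log2(CPM + 10), in regulatory-like droplets (left) and the other droplets (right) of the CD4 gate in Main1 (circles) and Main2 (squares), with 95% exact Poisson intervals. Ikzf2, Foxp3 and Maf lie higher and Lef1 lower in regulatory-like droplets in both libraries.

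Outside the lymphoid gates, Id2 and Maf had the clearest signal, described without a test. Id2 was at 1095 and 838 CPM in dendritic droplets (95 droplets gated on CD11c and MHCII), and a UMI was present in 45 of them. In red pulp macrophage droplets (99, gated on F4/80 and CD106) it was at 542 and 554 CPM, in monocyte droplets at 201 and 202, in neutrophil droplets at 161 and 120, and in erythroid droplets at 5.93 and 18.1. The dendritic gate thus lay nearest to NK droplets, while Foxp3, Lef1, Bcl11b, Gata3, Maf and Eomes were at 0 UMIs in it. Maf was at 351 and 253 CPM in red pulp macrophage droplets, with a UMI in 44 of 99, above the CD4 gate in both libraries. T cell markers summed to 2211 and 1312 CPM in those droplets, beside 127 and 105 CPM of Bcl11b. Myeloid markers there summed to 8126 and 15017 CPM, B cell markers to 1561 and 1627, and erythroid markers to 25575 and 68892, with 40.0% of the erythroid UMIs in 1 droplet. Dendritic markers summed to 263 and 471 CPM in dendritic droplets, against 299 and 364 in monocyte droplets. These gates are thus named for their antibodies, and the part of other cells in the Id2 and Maf levels was not tested.

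**Figure D5:**
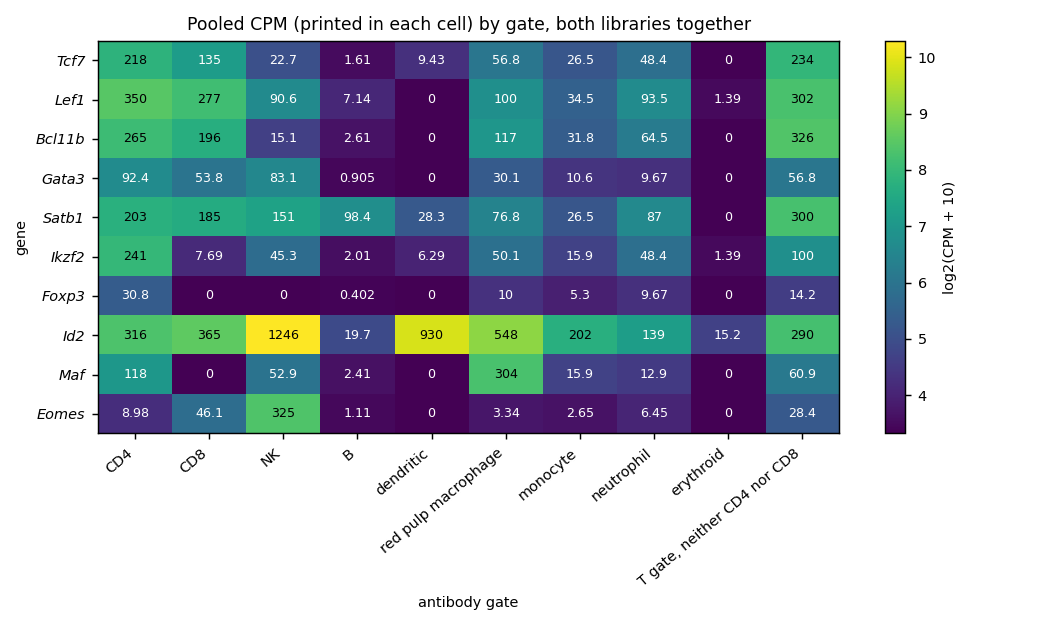
Pooled level of each gene in each antibody gate, as log2(CPM + 10) in colour with the CPM written in the cell, over both libraries together. Id2 is at 1246 in NK and 930 in dendritic droplets, Maf is at 304 in red pulp macrophage and 118 in CD4 droplets, and the erythroid column is near 0 for all genes but Id2.

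A fixed list of 34 other regulators of lymphocytes, of which 31 were measured and 27 reached the filter for the gates, was read beside the 10 genes. In T against B droplets 8 were called higher and 5 lower, with a median log2 fold of 0.09 against -0.19 over all genes. Tox (5.14), Rora (4.82), Runx2 (3.50), Tbx21 (2.54) and Stat4 (2.19) were higher, while Id3 (-1.82), Ikzf3 (-1.48) and Tcf3 (-1.26), the last an E protein gene, were lower in T droplets. Tox, a regulator of thymic selection, was at 61.7 and 35.8 CPM in CD4 and 68.2 and 21.4 in CD8 droplets, against 1.12 and 0.911 in B droplets. In CD4 against B droplets 11 were called higher and 7 lower, led by Rora (5.53), Tox (5.30), Runx2 (3.37), Stat4 (2.17), Prdm1 (2.16), Tbx21 (1.75), Id3 (-1.73) and Zeb2 (-1.67).

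In NK against B droplets 6 of the 27 were called higher and 4 lower. Rora (5.18), Tox (4.70), Tbx21 (4.53), Stat4 (3.10) and Zeb2 (2.75) were higher in NK droplets, and Id3 (-3.60) and Foxp1 (-2.39) lower. Bach2 had 0 UMIs in NK droplets, against 63.3 and 60.5 CPM in B droplets, at least 2.73-fold lower. Against the T gates Zeb2 (3.31), Tbx21 (1.99) and Ikzf3 (1.42) were higher and Foxp1 (-1.14) lower. Tbx21, the T-box relative of Eomes, was at 146 and 177 CPM in NK droplets, against 11.6 and 25.6 in CD4 and 27.3 and 69.6 in CD8 droplets.

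Between CD8 and CD4 droplets 1 of the 27 was called higher and 0 lower. It was Zeb2, a zinc finger repressor that promotes terminal effector differentiation, whose call rested on Main2, with 0 and 102 CPM in CD8 against 12.9 and 19.2 in CD4 droplets. Of the 20 that reached the filter for the CD44 comparison, 2 were called higher and 0 lower in CD44-high CD4 droplets. Runx3 was at 114 and 88.2 CPM in CD44-high against 20.0 and 19.9 in CD44-low droplets (log2 fold 2.23 ± 0.56, edgeR adjusted p = 0.00593). Rora was at 74.7 and 103 CPM against 26.7 and 13.2 (2.06 ± 0.60, edgeR adjusted p = 0.0347). In CD8 droplets and in the interaction, edgeR called 0 of the 20, of which 2 and 0 had an unadjusted p under 0.05.

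The genes most like each of the 10 were sought over 10 sums, namely CD44-high and CD44-low droplets of both T gates and NK droplets in each library, by Pearson's r of log2(CPM + 10) among 3142 genes. The sums share 2 libraries and differ in depth, so r is a description. Those named were picked as the highest of all, so a high r follows in part from the choice. Their UMIs over the 10 sums ran from 52 for Kdm7a, with Dpp3 at 53 and Klrg1 at 56, to 40117 for Malat1. Eomes was most like the NK receptor gene Klrd1 (r = 0.97), then Gm19585 (0.95) and Ctsc (0.93). Bcl11b was most like Sit1 (0.98), S1pr1 (0.96) and Rgs10 (0.95), and Tcf7 like Itga6 (0.95), Nxf1 (0.94) and Rgs10 (0.94). Id2 was most like Lgals1 (0.94), Fgl2 (0.93) and Klrg1 (0.92), while Lef1 followed the ribosomal protein genes Rps29 (0.95), Rpl36al (0.94) and Rps27 (0.93). Ikzf2 was most like Ankrd13a (0.93), Malat1 (0.90) and Dpp3 (0.89), and Maf like Socs2 (0.94), Arhgap30 (0.85) and Ikzf2 itself (0.83). Gata3 was most like Glrx5 (0.96), Snrpa (0.96) and Itm2c (0.95), and Satb1 like Kdm7a (0.89), Mrpl23 (0.87) and Saraf (0.87). Foxp3 had too few UMIs for this measure.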

How the data were processed

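The authors deposited 1 table of UMI counts per gene and droplet and 1 table of antibody tag counts per droplet, both whole numbers with no normalization, per the file headers and values. Cell Ranger 3.0.2, bcl2fastq and the build mm10 are listed, with no role, in the submitters' processing notes. Droplet names beginning m1 or m2 were read as Main1 and Main2, and the tables do not separate the 4 samples within a group, so each source was 1 library (7964712 and 10174799 UMIs). Main1 and Main2 were present in every gate, so the library block pairs the sums by construction. The 10 genes, the lists and the gates were chosen with earlier results of these data known.

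An antibody was positive above a posterior of 0.5 in the upper of 2 Gaussian components of its log ratio to the mean of all antibodies in a droplet (scikit-learn 1.9.0). The T gate was positive for CD3 and TCR with a log2 ratio of CD90 to B220 of at least 3, then CD4 to CD8a of at least 2 either way and at least 10 counts. NK droplets had at least 5 NKp46 counts and were negative for CD3, TCR, B220, CD79b, Ly6G, F4/80, MHCII and an antibody not reported here. B droplets were positive for B220 and CD79b and negative for CD3 and TCR, with a log2 ratio of B220 to CD90 of at least 1. Droplets in 2 gates entered none. CD44 tertiles used the same scale. T gate droplets in neither arm (215) entered no test.

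UMIs were summed per gate and library and tested with edgeR 4.0.16 (R 4.3.3; TMM, quasi-likelihood, library as block, at least 30 UMIs over 8 sums, 3 residual degrees of freedom, tested on simulated data). The prior degrees of freedom were infinite, so all genes share 1 variance trend. Alternatives were DESeq2 1.42.0 or its size factors, no filter, no replicate block, mixture gates, 1000 to 4000 UMIs, each library alone, other CD44 splits and 10 NKp46 counts. Added after seeing the data were CD4 against B, the omission of droplets with other markers, and tertiles of other antibodies. The genes named were all 10 in every comparison, up to 8 called regulators per comparison, and the 3 most alike over 10 sums. Thinning used 1000 UMIs per droplet, and no droplet was shallower. Strand use in counting is not stated. Genes listed in the table overlap Lef1 (Gm43352, opposite strand), Tcf7 (Gm26551, same strand) and Foxp3 (Ppp1r3f and Ccdc22, opposite strand), so their reads may be shared. Gene coordinates are from GENCODE vM21 (GRCm38).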

Additional observations from a re-analysis of the deposited data

How the results depend on the processing

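For the 36 called folds of the 10 genes, 343 values under alternatives gave 326 counted as the same, 16 with the call lost and 1 reversed. The reversed value was Maf in NK against B from Main1 alone (-0.24, against 2.845 from Main2 alone). A library alone gave no test, so 35 of the 326 from Main1 and 36 from Main2 kept their direction only. The rest kept direction and call. Folds with an SE over 2, none of them called, were left out of these counts. Of the 29 other folds not called, 22 values reversed in alternatives with a test and 3 became called. From 1 library alone, 8 more changed sign and moved by more than the SE of the fold (6 from Main1, 2 from Main2). Sign changes within the SE were not counted there. The cause was not tested. With mixture gates the reversed log2 folds were 0.12 for Gata3 in NK minus T, 0.24 for Satb1 in CD8 minus CD4, -0.00827 and 0.14 for Bcl11b with CD44 in CD4 and CD8, and 0.15 for Bcl11b and 0.57 for Satb1 in the interaction. With 1000 to 4000 UMIs they were 0.0196 for Bcl11b, -0.34 for Id2 and 0.18 for Satb1 in CD8 minus CD4, -0.13 for Bcl11b with CD44 in CD4 and 0.0741 for Satb1 in the interaction. Without droplets of other markers they were -0.25 for Id2 and 0.16 for Satb1 in CD8 minus CD4 and 0.34 for Satb1 in the interaction. With raw CD44 tertiles they were 0.36 and 0.57 for Satb1 in CD4 and CD8, 0.73 for Tcf7 in CD8 and 0.20 for Satb1 in the interaction. With CD44 split at the median they were -0.14 for Lef1 and -0.49 for Tcf7 in the interaction, and with 10 NKp46 counts -0.14 for Satb1 in NK minus B and 0.00395 for Ikzf2 in NK minus T.

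Counts of all genes called changed more. DESeq2 called 1136 against 1805 in T versus B, 1187 against 2365 in CD4 versus B, 22 against 81 in CD8 versus CD4, 9 against 73 for CD44 in CD4, 0 against 35 for CD44 in CD8 (145 at an unadjusted p under 0.05) and 0 against 7 for the interaction (50). Without the replicate block 46 were called for CD44 in CD4, 13 in CD8 and 0 for the interaction (196 at an unadjusted p under 0.05); all 46 and all 13 were among those called with it. With 1000 to 4000 UMIs 1517 were called in CD4 versus B, 31 in CD8 versus CD4, 11 for CD44 in CD8 and 0 for the interaction (97). Mixture gates gave 1419 in CD4 versus B and 16 for CD44 in CD8. Without droplets of other markers 45 were called in CD8 versus CD4, 19 for CD44 in CD8 and 2 for the interaction, and without a filter 22 and 4 for the last 2. DESeq2 gave no adjusted p for Foxp3, Gata3 and Maf with CD44 in CD4. With 1 gene in place of 2, regulatory-like droplets held 300.4 CPM of Ikzf2, and with 3 genes 392 CPM, against 383 CPM. Foxp3 and Eomes rested on 48 and 14 UMIs in the CD4 gate, and a CD8 tertile held 7 or 8 droplets in Main1 and 20 or 21 in Main2.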

Other observations

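CD4 droplets were also split into tertiles by other antibodies, a choice made after the data had been seen and described without a test. CD27, a costimulatory receptor, separated Ikzf2, at 427 CPM in its highest tertile and 116 in its lowest (a log2 ratio of 1.99 for Main1 and 1.64 for Main2) at similar median depth, 2266 and 2381 UMIs. Foxp3 was at 50.1 CPM in CD27-high and 15.0 in CD27-low droplets, Lef1 at 380 and 262, and Id2 at 241 and 380. The CD27 and CD44 antibodies had a Pearson r of -0.24 across these droplets. In the CD90 tertiles Ikzf2 was at 152 CPM in CD90-high and 425 in CD90-low droplets, and in the Ly6C tertiles at 158 in Ly6C-high and 414 in Ly6C-low droplets, with the same sign in both libraries. Bcl11b had the reverse pattern, at 332 CPM in CD90-high and 180 in CD90-low droplets, and 291 in Ly6C-high and 156 in Ly6C-low droplets. CD90-high droplets were deeper (median 3819 UMIs against 1741), as were Ly6C-high droplets (3218 against 1930), and the part of depth was not tested. CD5 tertiles gave a log2 ratio of 0.60 for Ikzf2, 1.114 in Main1 and 0.02 in Main2.

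The T gate droplets that fell into neither the CD4 nor the CD8 arm numbered 215 and had a median of 5363 UMIs, against 2291 in the CD4 gate. They held 222 and 242 CPM of Tcf7, 318 and 331 of Bcl11b, 115 and 90.6 of Ikzf2, 61.6 and 60.4 of Maf and 15.4 and 36.9 of Eomes in Main1 and Main2. Within the CD4 gate an Ikzf2 UMI went with a Maf UMI, present in 54 of 120 droplets with Ikzf2 and 53 of 299 without, and after thinning in 19.4% and 9.09%. After thinning a Lef1 UMI was present in 16.4% of droplets with Ikzf2 and 31.5% of those without.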
